A study of Tupaia belangeri with 15 samples.

Results

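The retinal determination genes of the DACH, EYA and SIX3/SIX4/SIX6 families were followed through the nuclei of the tree shrew (TS, Tupaia belangeri) retina. The members were found by gene name among the features of the count tables: DACH1, DACH2, EYA1, EYA2, EYA3, EYA4, SIX3, SIX4 and SIX6, 9 of 83605 features. Each was read from the feature that carries its plain symbol, so no numbered copy had to stand in. The series holds single-nucleus RNA libraries of 15 whole retinas, 1 library a retina, with 5 animals in each of the stages Infancy, Mature and Senile. No allele, treatment or agent is named for any group. Infant and mature animals came from one animal centre and senile animals from another institute, so stage and source cannot be told apart in any comparison with the senile stage. Nuclei were not sorted by type, the labels give no age beyond the stage, and the p-values below measure the spread between retinas.

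SIX3, SIX4 and SIX6 encode homeodomain proteins that bind DNA, EYA proteins are cofactors with a phosphatase domain that such homeodomain partners bring to target genes, and DACH proteins are cofactors related to the SKI family of corepressors. The set is named for the fly eye, where the corresponding genes specify the eye field, and in vertebrates SIX3 and SIX6 act in the early eye field and keep roles in retinal progenitors and in some mature neurons.

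The libraries held 13429873 to 58734300 unique molecular identifiers (UMIs), with a median of 1461 to 5611 UMIs a barcode. The count tables of 7 retinas were written by Cell Ranger 6.1.2 and those of 8 by Cell Ranger 7.0.1. The earlier version holds 3 infant, 2 mature and 2 senile retinas. These sets of libraries also differed in yield, with 490 to 674 RGC nuclei a retina under 6.1.2 and 61 to 286 under 7.0.1. Version can therefore not be told apart from other differences between the sets. A single long noncoding feature took 12.1% to 21.2% of all UMIs of a library. Any pair of libraries shared 4 to 30 barcodes. The members and their copies took no part in the clustering, and clusters of nuclei were named from marker lists as cones, rods, bipolar cells (BCs), horizontal cells (HCs), amacrine cells (ACs), retinal ganglion cells (RGCs), Müller cells, astrocytes and microglia. Of 111825 nuclei, 96647 took one of these names, and 14453 stayed unnamed, mostly because their clusters mixed the markers or leading genes of different classes. Rods could not be named in Senile 1, Müller cells in Senile 5, astrocytes in Mature 4 and microglia in Mature 5, so values of these classes come from 14 retinas. Levels are given in CPM, the UMIs of a gene in every 1000000 UMIs of that class in that retina. Values are not corrected for gene length and are compared between classes, never between genes.

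Each marker list summed highest in its own class, and defining genes separated some classes well. The rod gene PDE6A had 944 to 2037 CPM in rods against 5.05 to 28.4 in cones. PAX2, a transcription factor of optic nerve head and retinal astrocytes, had 406 to 923 CPM in astrocytes against 0 to 5.73 in Müller cells. Markers of other classes were nonetheless counted in every class. The 12 cone markers summed to 17854 to 26828 CPM in cones, to 1287 to 4686 CPM in rods, to 991 to 1993 CPM in BCs and to 530 to 7458 CPM in microglia, with a median of 1713. The 12 BC markers summed to 5870 to 7476 CPM in BCs and still to 1767 to 3129 CPM in RGCs, 1415 to 2815 CPM in rods and 1001 to 2771 CPM in ACs, and the 10 Müller cell markers to 5203 to 11152 CPM in Müller cells and 1536 to 2265 CPM in astrocytes. The source of these UMIs was not tested.

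The depth behind the members differed widely. DACH1 had 375550 UMIs over the 15 libraries, DACH2 97465, EYA4 23547, EYA3 22128, SIX3 21680, EYA2 12591, SIX6 7840, EYA1 2843 and SIX4 only 305. Values of DACH1 and DACH2 are therefore the most reliable, and those of SIX4 are close to the limit of detection in every class. A separate feature, DACH2li1, a numbered copy of DACH2 with 23877 UMIs, may share reads with DACH2. Antisense features lie at several members, the most abundant being DACH1-AS-2 with 16798 UMIs.

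**Figure D1:**
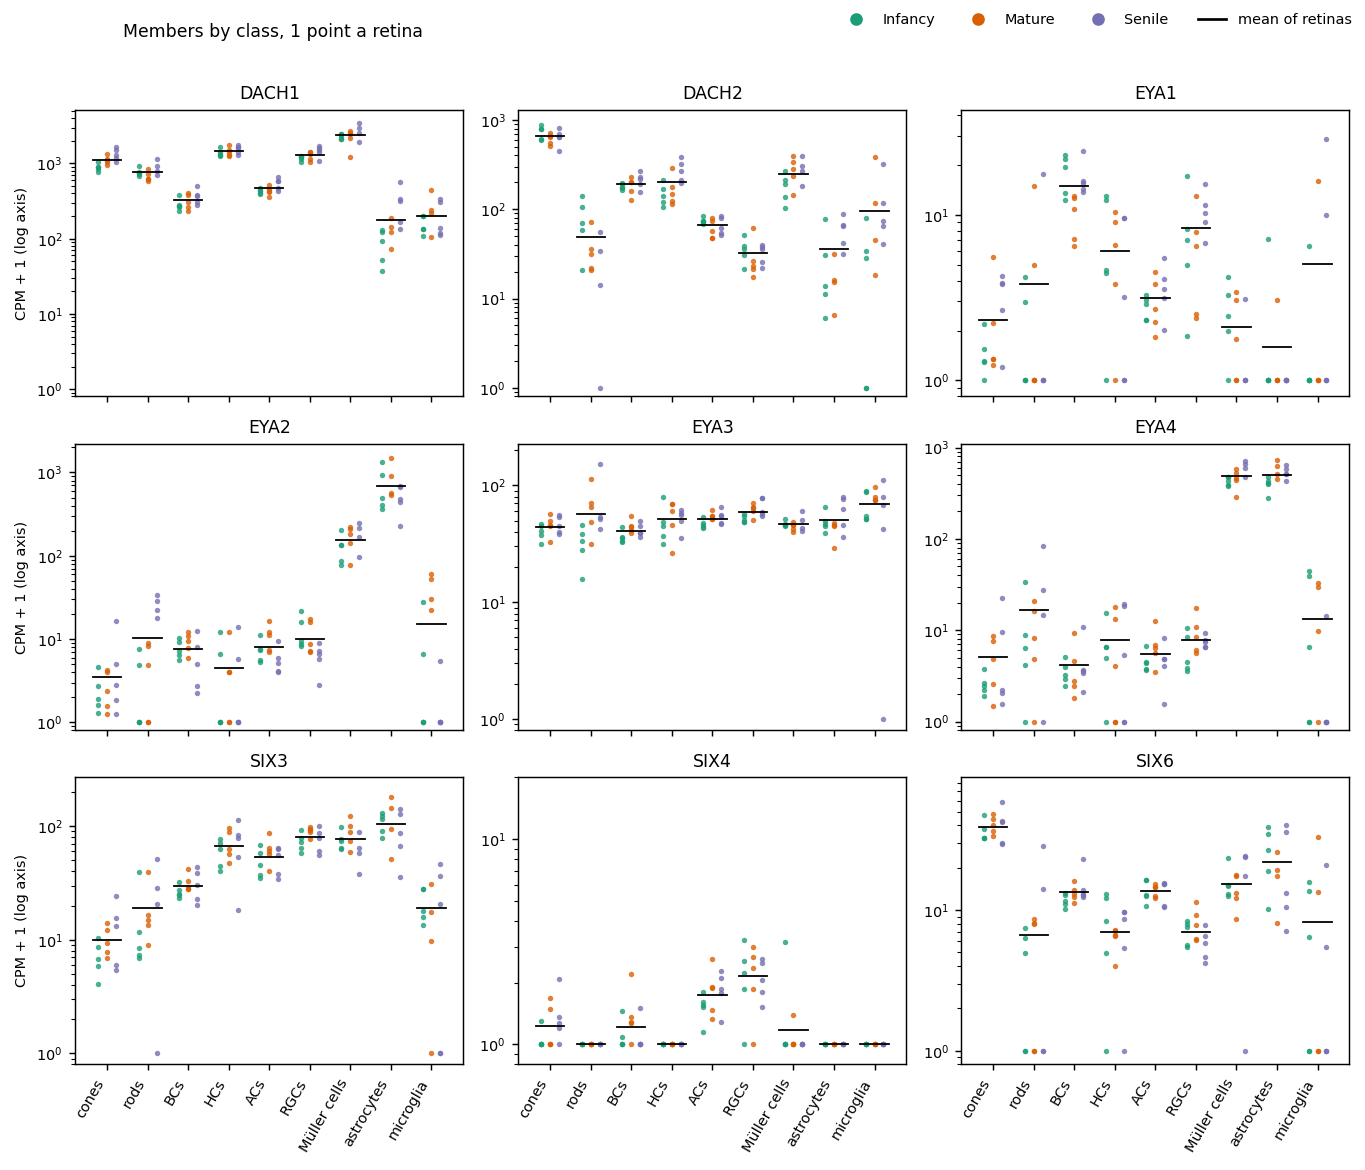
Levels of the 9 members in the 9 classes, 1 point a retina on a log axis of CPM + 1, coloured by stage, with a bar at the mean over retinas. DACH1 is highest in Müller cells, DACH2 is highest in cones, EYA2 and EYA4 stand out in astrocytes and Müller cells, EYA3 is nearly flat, and SIX6 is highest in cones.

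DACH1 had its highest level in Müller cells, the radial glia that span the retina. The level in Müller cells was lowest in Mature 2 (1209 CPM), had a median of 2430 CPM and was highest in Senile 4 (3457 CPM). HCs followed at 1456 ± 176 CPM (SD, n = 15), RGCs at 1303 ± 203 (n = 15), cones at 1114 ± 247 (n = 15), rods at 768 ± 146 (n = 14), ACs at 470 ± 84 (n = 15) and BCs at 323 ± 75.7 (n = 15). Microglia, at 199 ± 103 CPM (n = 14), and astrocytes, at 175 ± 140 (n = 14), were at the bottom of the order. In these 2 classes the 12 cone markers summed to medians of 1713 and 559 CPM, and the part of RNA from other cells in their DACH1 was not tested. Each of the first 7 steps of this order had an unadjusted p under 0.05 in an exact sign-flip test, from 6.1e-05 for ACs above BCs to 0.00323 for HCs above RGCs. The latter step was small, 0.17 ± 0.18 on the log2 scale in 12 of 15 retinas. The last 2 classes could not be separated (microglia above astrocytes in 9 of 13 retinas, exact unadjusted p = 0.233). Over all members, 72 pairs of neighbours in such an order were compared, and 21 differed at an unadjusted p under 0.05. The order was taken from these same values, so a small p here describes a gap and is no independent support for the order. No such count was made over all features.

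Between the macroglial classes the mean difference was larger for DACH1 than for any other member. Müller cells exceeded astrocytes by 4.17 ± 0.86 (SD, n = 13) on the log2(CPM + 1) scale, in 13 of 13 retinas (exact sign-flip test, p = 0.000244, adjusted p = 0.00163 over the 10917 features tested for this pair). In that comparison 34.3% of all features passed, and 4 members passed: DACH1 and DACH2 with more in Müller cells, EYA2 and SIX3 with more in astrocytes. EYA1 and SIX4 had too few UMIs for an adjusted p there.

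DACH2, the second vertebrate dachshund gene, had another order. Cones led, with a lowest value of 448 CPM in Senile 3, a median of 649 CPM and a highest value of 868 CPM in Infancy 1. Müller cells (245 ± 91.1 CPM, n = 14), BCs (191 ± 35.3, n = 15) and HCs (198 ± 83.5, n = 15) came next and could not be separated from each other in neighbouring pairs (exact unadjusted p = 0.125 and 0.777). HCs stood above ACs (66.2 ± 13 CPM, n = 15) in 15 of 15 retinas (exact unadjusted p = 6.1e-05), and ACs, microglia, rods, RGCs and astrocytes again could not be separated from their neighbours. RGCs had 31.6 ± 12.2 CPM of DACH2 (n = 15).

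In the photoreceptors, DACH2 had the largest mean difference of the members between cones and rods. It had 0 to 141 CPM in rods, with a median of 34 CPM, and the level in cones was higher in 14 of 14 retinas. The difference was 4.35 ± 1.64 on the log2(CPM + 1) scale (exact sign-flip test, adjusted p = 0.00114). DACH1 was also higher in cones, by 0.51 ± 0.31 in 13 of 14 retinas (exact test, adjusted p = 0.00183). Besides these 2 genes only SIX6 passed among the members, where 33.7% of all features differed between cones and rods. EYA1 and SIX4 had too few UMIs for an adjusted p in this pair.

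The cone types differed in the DACH genes in opposite directions. L-cones, the long-wavelength cones with the opsin OPN1LW, had more DACH1, whereas S-cones, the short-wavelength cones with OPN1SW, had more DACH2. DACH1 in L-cones ranged from 783 to 1663 CPM, with a median of 1074, and in S-cones from 498 to 1346 CPM, with a median of 739. Within every one of the 13 retinas with S-cones the L-cones were higher, by 0.56 ± 0.17 (exact sign-flip test, p = 0.000244, adjusted p = 0.00601). For DACH2 the order turned: L-cones had 443 to 848 CPM, with a median of 636, and S-cones 780 to 1414 CPM, with a median of 1032. Here S-cones were higher in 13 of 13 retinas, by 0.68 ± 0.12 (log2 difference of L-cones minus S-cones -0.68, exact test, adjusted p = 0.00601). EYA3, EYA4, SIX3 and SIX6 did not pass between the cone types, and 12.1% of all features did. EYA1, EYA2 and SIX4 had too few UMIs for an adjusted p. S-cones were few, 12 to 100 nuclei a retina. With at least 50 nuclei required the log2 differences were 0.59 and -0.63 with an adjusted exact p of 0.267 each. Only Infancy 1, Mature 1, Mature 2, Mature 3, Senile 1 and Senile 2 entered there. With so few retinas the smallest p of a sign-flip test is high, so the lost calls say little about the differences. With single nuclei assigned by markers the DACH2 difference was -0.40, still called.

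**Figure D2:**
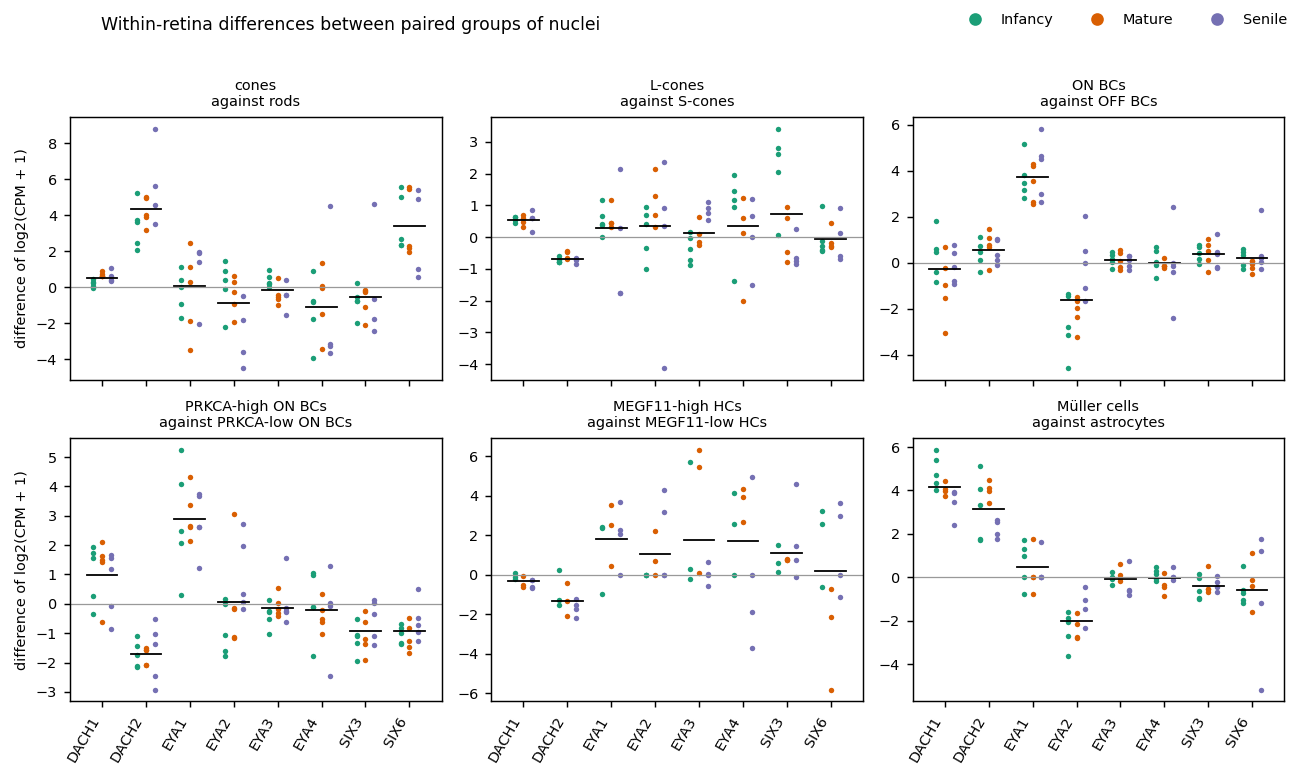
Within-retina differences of log2(CPM + 1) for 8 members between 6 pairs of groups of nuclei, 1 point a retina coloured by stage, with a bar at the mean. Points above 0 mean a higher level in the group named first. DACH1 and DACH2 lie on opposite sides of 0 between L-cones and S-cones in all 13 retinas, EYA1 lies above 0 in all 15 retinas between ON BCs and OFF BCs, and DACH1 and DACH2 lie above 0 in all 13 retinas between Müller cells and astrocytes.

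BCs link photoreceptors to the inner retina. Their clusters were divided by the mean scaled level of ISL1, the glutamate receptor GRM6 and GPR179. Clusters with a high mean were taken as ON BCs, those with a low mean as OFF BCs, and those between as neither. Low ISL1 and GRM6 did not always place a cluster among OFF BCs. In Mature 1 a cluster with 0 CPM of ISL1 and 5.93 CPM of GRM6 was in neither group. ON BCs were divided into clusters with high and with low PRKCA, a kinase known as a marker of rod bipolar cells. Summed over its clusters, the PRKCA-low group had more DACH2. It ranged from 292 to 563 CPM in PRKCA-low ON BCs and from 68.6 to 244 CPM in PRKCA-high ON BCs, so the groups did not overlap. The log2 difference of PRKCA-high minus PRKCA-low was -1.71 ± 0.61, with PRKCA-low higher in 15 of 15 retinas (exact sign-flip test, adjusted p = 0.000588). With single nuclei assigned by markers it was -1.08, still called. DACH1 was higher in the PRKCA-high clusters in 11 of 15 retinas, by 0.98 ± 1.01 (adjusted exact p = 0.0165), but the direction turned when nuclei were assigned 1 by 1 by their markers instead of by cluster, to a difference of -0.61 that itself passed (adjusted exact p = 0.0384). In all, 5 members passed between the PRKCA groups, where 30.3% of all features did. EYA3 did not pass, and EYA2, EYA4 and SIX4 had too few UMIs for an adjusted p. ON BCs exceeded OFF BCs in DACH2 by 0.53 ± 0.56 in 12 of 15 retinas (adjusted exact p = 0.0128), but the difference was 0.08 (adjusted exact p = 0.781) in the Cell Ranger 6.1.2 retinas and 0.93 (adjusted exact p = 0.0371) in the 7.0.1 retinas, and -0.04 (adjusted exact p = 0.876) with single nuclei assigned by markers. DACH1 did not pass between ON BCs and OFF BCs, at -0.28 ± 1.16 (adjusted exact p = 0.536), with ON BCs higher in 6 retinas and OFF BCs in 9.

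The level of DACH1 varied widely between BC clusters. The BCs of each retina fell into 10 to 15 clusters, 199 in all. In the BC cluster with most DACH1 the level was 1112 to 2144 CPM, with a median of 1404 over the 15 retinas. In 12 retinas that cluster was low in ISL1 and was the one with most NETO1, a subunit that modulates kainate receptors, and in the other 3 it was a PRKCA-high ON cluster. The BC cluster with most NETO1 had 1403 to 2098 CPM of it in the 15 retinas and 856 to 2588 CPM of ERBB4, a neuregulin receptor. Those 15 clusters held DACH1 at 932 to 2144 CPM, with a median of 1382, and DACH2 at 0 to 52.5 CPM, with a median of 10.6. The BC cluster with most ERBB4 was another one in every retina, with 21313 to 34473 CPM of ERBB4 and 20.1 to 208 CPM of NETO1. It had 540 to 935 CPM of DACH1, with a median of 671, and 6.25 to 132 CPM of DACH2. Only 4 of the 15 NETO1-rich and 6 of the 15 ERBB4-rich clusters were placed among OFF BCs, and the others were in neither the ON nor the OFF group. Those 4 NETO1-rich clusters were in Mature 4, Mature 5, Senile 3 and Senile 4, all of Cell Ranger 7.0.1. For DACH2, ON BCs were higher than OFF BCs in 4 of these 4 retinas and in 8 of the other 11. For DACH1, they were higher in 0 of 4 and in 6 of 11. The part of this placing in the ON and OFF comparisons was not tested. The BC cluster with most DACH2 stood at 496 to 1228 CPM of DACH2 and 17.8 to 301 CPM of DACH1, and in 14 of 15 retinas it was a PRKCA-low ON cluster. High DACH2 was not a feature of all PRKCA-low clusters, nor of these alone. At least 300 CPM of DACH2 was found in 15 of 51 PRKCA-low clusters, 1 in each retina, and in 13 of 61 PRKCA-high clusters, 1 in each of 13 retinas, at 302 to 937 CPM. These 13 PRKCA-high clusters had 77.3 to 399 CPM of DACH1. Among OFF BCs a cluster with 5724 to 7951 CPM of DSCAM, a cell adhesion gene, carried most DACH2, at 279 to 712 CPM, with 36.7 to 117 CPM of DACH1. High DSCAM was not particular to it. The ERBB4-rich clusters had 5474 to 8138 CPM of DSCAM, and another OFF cluster of Senile 4 had 7444 CPM with 38.9 CPM of DACH2.

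No BC cluster reached the cut-offs chosen for both DACH genes. Of 199 clusters, 54 had at least 500 CPM of DACH1 and 42 had at least 300 CPM of DACH2, and 0 had both. The cut-offs were set after the values had been seen, and clusters of one retina share a library, so this is a description without a test. The count of 0 depends on the cut-offs, since a PRKCA-high cluster of Senile 3 had 399 CPM of DACH1 with 321 CPM of DACH2. The same cut-offs were applied to ACs. Of 359 AC clusters, 137 were high in DACH1, 22 were high in DACH2, and 21 of these 22 were high in both. Over the clusters within a retina, the Pearson correlation of the 2 genes on the log2(CPM + 1) scale was between -0.48 and -0.13 in BCs and between 0.09 and 0.54 in ACs, over 10 to 15 BC clusters or 16 to 29 AC clusters. Points in such a correlation share their library.

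**Figure D3:**
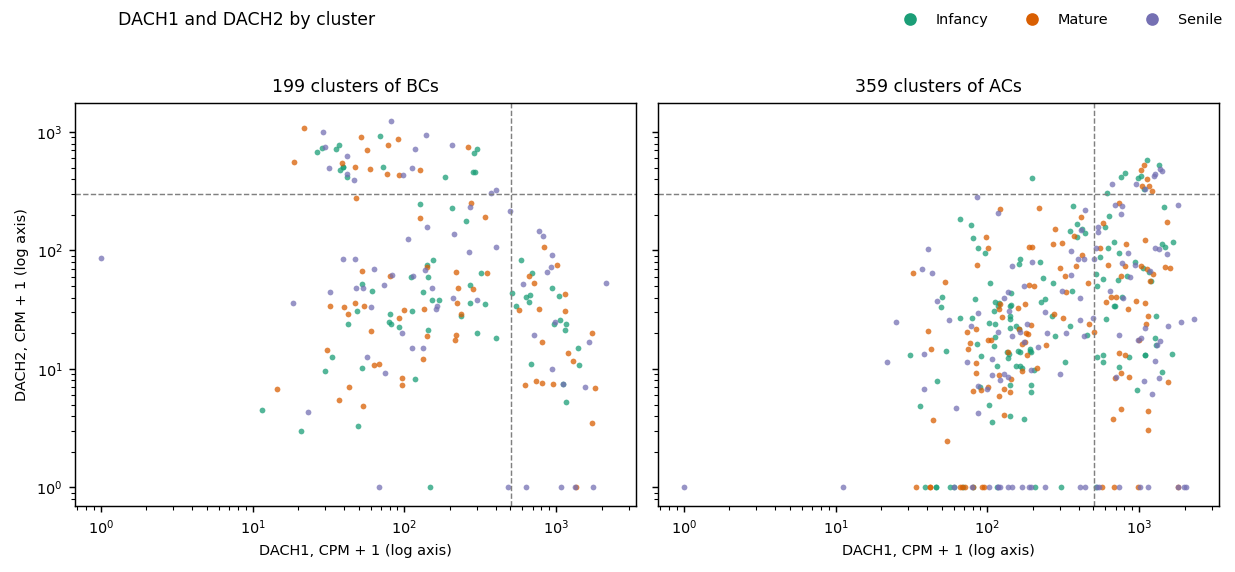
DACH1 (x axis) and DACH2 (y axis) in the clusters of BCs (left, 199 clusters) and ACs (right, 359 clusters), both in CPM + 1 on log axes, 1 point a cluster, coloured by stage, with dashed lines at 500 CPM of DACH1 and 300 CPM of DACH2. The upper right corner is empty for BCs and holds 21 clusters for ACs.

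HCs, the lateral interneurons of the outer retina, were divided by MEGF11, a gene that arranges their mosaic. The MEGF11-low clusters had more of both DACH genes. DACH2 was 167 to 709 CPM in MEGF11-low HCs and 50.5 to 231 CPM in MEGF11-high HCs, a log2 difference of -1.31 ± 0.73 with MEGF11-low higher in 9 of 10 retinas (exact sign-flip test, adjusted p = 0.0255). DACH1 differed by -0.32 ± 0.27, in 9 of 10 retinas (adjusted exact p = 0.0341), a call that 8 of the 10 fits without 1 retina lost. SIX3 was the other member to pass, higher in MEGF11-high HCs by 1.12 ± 1.32 in 9 of 10 retinas (adjusted exact p = 0.0255), where 20.3% of all features did. The SIX3 difference was 1.70 in the Cell Ranger 6.1.2 retinas and 0.55 in the 7.0.1 retinas. EYA3 did not pass. EYA1, EYA2, EYA4, SIX4 and SIX6 had too few UMIs for an adjusted p, with EYA1 at an exact unadjusted p of 0.0117. The MEGF11-low HCs numbered only 11 to 61 nuclei in each of these 10 retinas. With single nuclei assigned by markers the 3 differences kept their direction without passing (adjusted exact p = 0.778 each).

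Among the EYA genes, EYA2 and EYA4 were highest in the macroglia. EYA2 in astrocytes was lowest in Senile 2 (228 CPM), with a median of 555 CPM, and highest in Mature 5 (1477 CPM). In Müller cells it was 75.4 to 245 CPM, with a median of 153. Astrocytes were higher in 13 of 13 retinas, by 2.03 ± 0.83 on the log2(CPM + 1) scale (exact sign-flip test, adjusted p = 0.00163). Müller cells in turn exceeded RGCs, the class next in order, by 4.01 ± 0.85 in 14 of 14 retinas (exact unadjusted p = 0.000122), and the means of all the other classes lay at 2.54 to 14.2 CPM.

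EYA4, known for inherited hearing loss and cardiomyopathy, was also high in both macroglial classes. Astrocytes had 279 to 737 CPM and Müller cells 287 to 711 CPM, with medians of 495 and 476. The difference between them was -0.03 ± 0.37 (Müller cells minus astrocytes), with Müller cells higher in 7 of 13 retinas (adjusted exact p = 0.888). All neuronal classes and microglia had means of 3.15 to 15.6 CPM.

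EYA1 was scarce and highest in BCs. In BCs as a whole it had 13.9 ± 5.19 CPM (n = 15), above RGCs (7.28 ± 4.58 CPM, n = 15) in 14 of 15 retinas (exact unadjusted p = 0.000549). ON BCs had 10.6 to 55.3 CPM and OFF BCs 0 to 3.6 CPM. That difference, 3.74 ± 1.01, was the largest of any member between these groups and held in 15 of 15 retinas (exact sign-flip test, adjusted p = 0.000501). Its size depends on the pseudocount, since OFF BCs were close to 0, and was 1.64 with 10 CPM in place of 1, still called. In this pair 35.6% of all features passed, and 4 members did, while SIX4 had too few UMIs for an adjusted p. Within ON BCs the PRKCA-high clusters had 18.8 to 89.6 CPM and the PRKCA-low clusters 0 to 20.9 CPM, a log2 difference of 2.88 ± 1.25 in 15 of 15 retinas (exact test, adjusted p = 0.000588), or 1.64 with a pseudocount of 10 CPM.

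The BC cluster with most EYA1 was placed among PRKCA-high ON BCs in 15 of 15 retinas, at 32.6 to 216 CPM with a median of 132. In 14 retinas it had 550 to 1487 CPM of PRKCA, 41.9 to 311 CPM of DSCAM and 9.52 to 827 CPM of ERBB4. The exception was Senile 4, where the cluster had 299 CPM of PRKCA with 1791 CPM of DSCAM and 1044 CPM of ERBB4, and so mixed markers, and made up 266 of the 403 PRKCA-high nuclei. Without Senile 4 the 5 members called between the PRKCA groups stayed called, in the same directions, with log2 differences of 0.94 for DACH1, -1.80 for DACH2, 2.99 for EYA1 and -1.03 for SIX6 (adjusted exact p = 0.0285, 0.00107, 0.00107 and 0.00107) and an adjusted exact p of 0.00168 for SIX3. Other ON clusters that mixed markers stayed in these comparisons. A PRKCA-high cluster of Senile 1 had 2018 CPM of DSCAM and 752 CPM of ERBB4. A PRKCA-low cluster of the same retina had 2302 CPM of ERBB4 and 924 CPM of DACH1. In 3 retinas the cluster with most EYA1 was also the BC cluster with most DACH1.

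EYA3 varied least between classes, with means of 39.9 CPM in BCs to 68 CPM in microglia. Of its 8 neighbouring pairs of classes, only cones above BCs reached an unadjusted p under 0.05, by 0.11 ± 0.15 (exact test, p = 0.0169). OFF BCs had more EYA2 than ON BCs, 13.6 ± 7.59 against 3.40 ± 2.44 CPM, in 13 of 15 retinas (adjusted exact p = 0.00942).

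SIX3, a homeodomain factor of the forebrain and eye field, was found in the inner retina, Müller cells and astrocytes and was low in photoreceptors and microglia. Astrocytes had 104 ± 39.6 CPM (n = 14), RGCs 79 ± 15.2 (n = 15), Müller cells 75.5 ± 21.5 (n = 14), HCs 65.5 ± 24.4 (n = 15) and ACs 53 ± 15.3 (n = 15). Of the steps among these 5 classes only Müller cells above HCs reached an unadjusted p under 0.05 (exact test, p = 0.0413). ACs exceeded BCs (28.9 ± 6.87 CPM, n = 15) in 15 of 15 retinas, and BCs exceeded rods (18.2 ± 14.9 CPM, n = 14) in 10 of 14. Microglia had 18.2 ± 13.8 CPM (n = 14), which could not be separated from rods or cones (exact unadjusted p = 0.967 and 0.436), and cones were lowest, at 9.04 ± 5.24 CPM (n = 15). Between Müller cells and astrocytes the log2 difference of -0.38 ± 0.46 passed (adjusted exact p = 0.0423), with astrocytes higher in 10 of 13 retinas, but 9 of the 13 fits without 1 retina lost the call, those without any but Infancy 1, Infancy 2, Mature 1 or Senile 2.

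The BC cluster with most SIX3 and the one with most DACH1 were the same cluster in 11 of 15 retinas. The clusters with most NETO1 held 70.7 to 184 CPM of SIX3, with a median of 125, against a mean of 28.9 CPM in BCs as a whole, and those with most ERBB4 held 3.96 to 34.3 CPM. In ON BCs, SIX3 was lower in the PRKCA-high clusters by 0.93 ± 0.65 in 13 of 15 retinas (log2 difference -0.93, adjusted exact p = 0.00158). ON BCs had more SIX3 than OFF BCs, by 0.37 ± 0.48 (adjusted exact p = 0.0312), in 11 of 15 retinas, with the direction turned to -0.07 under assignment of single nuclei and the call lost in 7 of the 15 fits without 1 retina. The NETO1-rich cluster was among OFF BCs in 4 retinas, where OFF BCs had 31.5 to 48.6 CPM of SIX3 and ON BCs were higher in 1, and outside both groups in 11, where OFF BCs had 8.63 to 26.7 CPM and ON BCs were higher in 10. In ACs, the inhibitory interneurons of the inner retina, the cluster with most SIX3 had 154 to 336 CPM of SIX3 and 37.1 to 185 CPM of DACH1. It had 2360 to 4324 CPM of GRM8, a metabotropic glutamate receptor gene. High GRM8 was not particular to it. In Senile 5 it had 3090 CPM of GRM8, and the AC cluster with most DACH2 had 7681 CPM.

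SIX6, the closest relative of SIX3, was highest in cones, with 28.4 to 57.5 CPM and a median of 36.9, and rods had 0 to 27.6 CPM with a median of 4.64. The difference was 3.39 ± 1.83 in 14 of 14 retinas (exact sign-flip test, adjusted p = 0.00114). Only 15 SIX6 UMIs stood behind the rod values, against 2416 in cones, and with a pseudocount of 10 CPM in place of 1 the difference was 1.69, still called. Astrocytes had 21 ± 11.8 CPM (n = 14), below cones in 11 of 14 retinas (exact unadjusted p = 0.00146), and Müller cells, ACs and BCs lay at means of 12.4 to 14.3 CPM. HCs and RGCs were at 6.02 ± 3.48 and 6.01 ± 1.9 CPM. The difference of L-cones minus S-cones, -0.06 ± 0.54, did not pass (adjusted exact p = 0.82). In ON BCs the PRKCA-high clusters were lower in 14 of 15 retinas (log2 difference -0.93 ± 0.53, adjusted exact p = 0.00158), and the difference was -0.43 with single nuclei assigned by markers, too few counts for an adjusted p.

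SIX4 was barely detected. It had 0 UMIs in rods, HCs, astrocytes and microglia, which at 3 UMIs over the summed class allows a level of up to 0.99 CPM in rods, 0.518 in HCs, 0.908 in astrocytes and 1.9 in microglia, counting error only. RGCs had 47 UMIs (1.15 ± 0.656 CPM, n = 15) and ACs 94 UMIs (0.742 ± 0.391 CPM, n = 15). ACs stood above cones in 13 of 15 retinas (exact unadjusted p = 0.000916).

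The study sampled postnatal life, so each member was compared between stages within each class. The fits could test 8 members in 52 combinations of member and class. SIX4 did not pass the filter on low counts in any class, and 29 of 81 combinations were not tested. Only DACH1 in cones passed, higher in senile than in infant retinas. Its values were 1056, 886, 892, 766 and 846 CPM in the infant retinas, 1324, 963, 1137, 1110 and 1028 CPM in the mature and 1312, 1642, 1063, 1509 and 1173 CPM in the senile retinas. The lowest senile retina was just above the highest infant one, and the mature retinas overlapped with both. The log2 fold change of senile against infant was 0.52 ± 0.13 (SE, edgeR quasi-likelihood test, adjusted p = 0.0471), with 1.90% of the features tested in cones called in that comparison. The study had picked out DACH1 in L-cones for age on these same samples, so the call is not independent of that choice. The senile cones also had the widest range of BC markers, 946 to 2703 CPM summed over 12 genes against 865 to 1543 in infant cones. RGC markers summed to 168 to 379 CPM in senile and 52.7 to 292 CPM in infant cones, and Müller cell markers to 92.2 to 421 and 122 to 289 CPM, and both of these classes had more DACH1 than cones. The part of these markers' classes in the result was not tested.

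The call changed with the retinas in the fit and with its settings. It was lost with the replicate number as a block (log2 fold change 0.54, edgeR adjusted p = 0.17), without the Cell Ranger term (0.48, adjusted p = 0.192), with doublets kept (0.54, adjusted p = 0.0559) and with single nuclei assigned by markers (0.51, adjusted p = 0.21). It was kept with RLE size factors (adjusted p = 0.0413), DESeq2 (0.00578), no low-count filter (8.4e-05), doubled clustering resolution (0.0247) and at least 50 nuclei (0.0471). Leaving out each retina in turn gave a log2 fold change of 0.44 to 0.61 and an adjusted p of 0.00673 to 0.196, and only 3 of 15 such fits kept the call, those without Infancy 1, Mature 2 or Senile 3. Within the Cell Ranger 6.1.2 retinas the change was 0.54 (edgeR adjusted p = 0.149) and within the 7.0.1 retinas 0.54 (adjusted p = 0.513). Mature retinas lay between, at 0.33 above infant (adjusted p = 0.347). When the change from infant to senile retinas was compared between classes, that of DACH1 in cones exceeded that in ACs by 0.23, in BCs by 0.23, in RGCs by 0.28 and in Müller cells by 0.39 on the log2 scale (exact permutation test, unadjusted p = 0.0159, 0.0476, 0.0238 and 0.0397). These are 4 of 90 such tests over the members and pairs of classes, 10 of which had an unadjusted p under 0.05. None passed adjustment over all features, where the adjusted p was 0.448 to 0.59 and 0 of all features passed for any pair of classes. A permutation of 5 against 5 or 4 retinas cannot go below p = 0.00794.

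**Figure D4:**
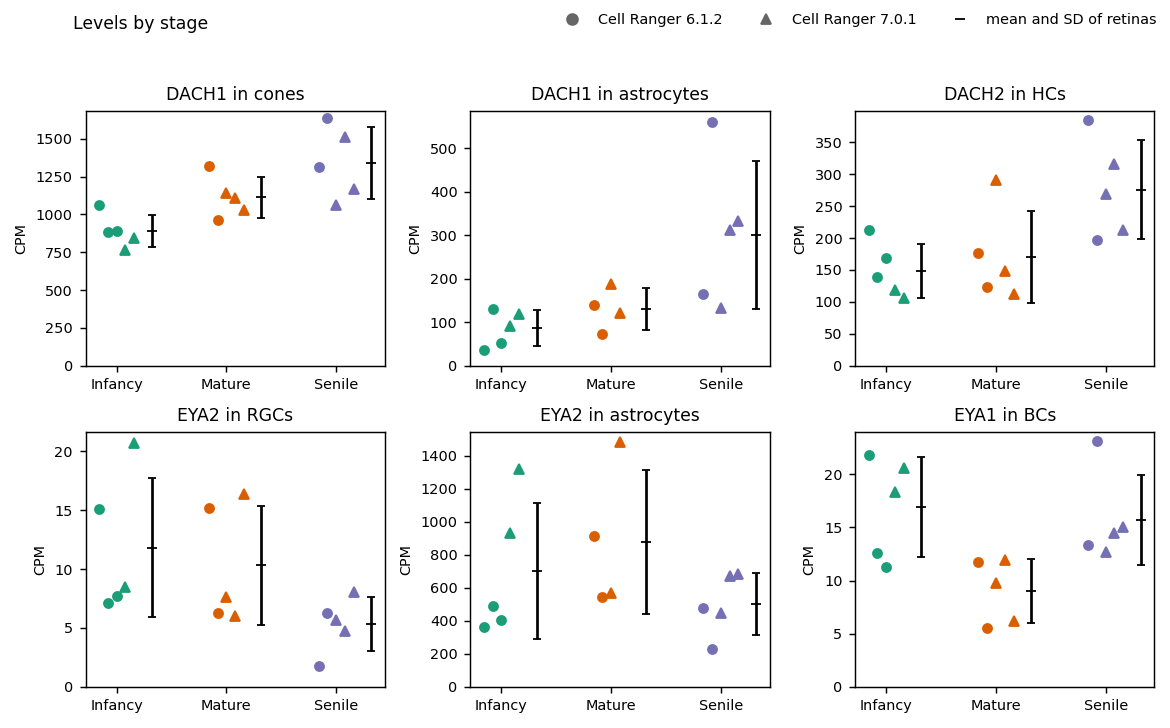
Levels in CPM by stage for DACH1 in cones and astrocytes, DACH2 in HCs, EYA2 in RGCs and astrocytes, and EYA1 in BCs, 1 point a retina, with circles for Cell Ranger 6.1.2 and triangles for 7.0.1 and a bar at the mean with its SD. DACH1 in cones is the only panel whose senile against infant difference passed adjustment, and its 5 senile points, 1063 to 1642 CPM, lie above the 5 infant points, 766 to 1056 CPM.

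The other 51 combinations did not pass between senile and infant retinas, and 0 passed between mature and infant or between senile and mature retinas. These counts stand against the share of all features called in each class. For senile against infant it was 1.90% in cones, 0.909% in rods, 1.44% in BCs, 0.447% in HCs, 1.18% in RGCs, 1.39% in ACs, 1.43% in astrocytes, 0.730% in Müller cells and 1.00% in microglia. For mature against infant it was 1.30% in cones, 0.666% in rods, 1.17% in BCs, 0.155% in HCs, 0.750% in RGCs, 0.811% in ACs, 0.476% in astrocytes, 0.691% in Müller cells and 0.131% in microglia. For senile against mature it was 0.00691% in cones, 0.0606% in rods, 0.0316% in ACs and 0% in the other classes. At an unadjusted p under 0.05 the members had 7, 4 and 10 combinations of 52 in these comparisons, in edgeR's test. Of all features, 7.33% to 12.4%, 7.76% to 13.6% and 5.32% to 10.6% had such a p, by class. The median log2 fold change of the 52 member combinations was 0.13, 0.15 and 0.03, and that of all features was between -0.04 and 0.04 in every class.

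Some of these values were large but varied between retinas. DACH1 in astrocytes was 36.1, 131, 51.2, 91.3 and 120 CPM in infant and 165, 560, 132, 312 and 333 CPM in senile retinas, a log2 change of 1.46 ± 0.40 (edgeR adjusted p = 0.104). All senile values lay above all infant ones, if only by 1 CPM at the edge. The cone markers in the astrocyte sums moved with it, from 241 to 467 CPM in infant to 593 to 2889 CPM in senile retinas, and their part in the result was not tested. DACH2 in HCs was 106 to 212 CPM in infant and 197 to 385 CPM in senile retinas, a change of 0.89 ± 0.26 (adjusted p = 0.28). The MEGF11-low HCs, which had more DACH2, made up 12.7% to 19.9% of HC UMIs in the 3 infant retinas with at least 10 of their nuclei. In 4 senile retinas they made up 16.6% to 40.7%. Infancy 3 and Infancy 5 had 8 and 9 such nuclei and were left out. Their MEGF11-low HCs held 18463 of 177951 and 66399 of 358343 HC UMIs. DACH2 was 82.2 to 219 and 87.1 to 231 CPM in infant and senile MEGF11-high HCs, and 183 to 289 and 395 to 709 CPM in MEGF11-low HCs, without a test. EYA1 in BCs was lower in mature retinas, at 5.51 to 11.9 CPM, than in infant retinas, at 11.3 to 21.8 CPM, with a change of -0.96 ± 0.26 (adjusted p = 0.095), and senile retinas were again at 12.7 to 23.1 CPM. EYA2 in RGCs was 1.80 to 8.03 CPM in senile and 7.15 to 20.7 CPM in infant retinas, a change of -1.27 ± 0.43 (adjusted p = 0.316). The class sums pool all nuclei of a class. They alone cannot tell fewer nuclei of a type that carries a gene from less RNA of that gene in each nucleus.

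The antisense features and the numbered copy gave 30 combinations with a class that could be tested, for 8 features, and 0 were called in any of the 3 comparisons, with 5, 6 and 0 at an unadjusted p under 0.05 in edgeR's test, against the shares of all features given above for the members.

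Of a list of 61 partners, upstream factors, relatives and targets of the members, 59 were in the files and 42 could be tested, in 218 combinations with a class. Between senile and infant retinas 0 combinations passed, and between senile and mature retinas 0 passed, with 22 and 17 at an unadjusted p under 0.05. Between mature and infant retinas 1 passed, GDNF in Müller cells, and 19 had an unadjusted p under 0.05. These counts stand against the same shares of all features. GDNF encodes a neurotrophic factor for photoreceptors and other neurons and lies downstream of EYA1 in kidney development. It had 4.32, 1.59, 4.01, 4.53 and 3.92 CPM in infant and 7.67, 13.8, 18.3, 12.2 and 18.4 CPM in mature retinas. Senile 1 to 4 had 6.3, 7.41, 5.73 and 16.5 CPM, on 2 to 17 UMIs, with 3 of 4 below the lowest mature value. The infant and mature groups did not overlap, and their log2 fold change was 1.81 ± 0.36 (edgeR adjusted p = 0.029), where 0.691% of the features tested in Müller cells were called. The infant values rest on 1 to 11 UMIs a retina, and the call was lost without any 1 of Infancy 2, Infancy 4, Infancy 5, Mature 2, Mature 3 or Mature 5. It was also lost with the replicate number as a block, within either Cell Ranger version and with single nuclei assigned by markers. The 14 eye field factors tested, such as PAX6 and OTX2, gave 83 combinations with 0 called in any comparison, and the 9 corepressors gave 50 with 0 called.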

How the data were processed

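Single-nucleus RNA was measured in 15 TS retinas. The authors deposited raw UMI counts per feature and barcode for each retina, aligned to TS_3.0 and written by Cell Ranger. Headers name versions 6.1.2 and 7.0.1, and the submitters' processing notes 5.0.1 and 7.0.1. Whether introns were counted, and with which strand setting, is not given in the sources used here. Kit versions differ between the labels and the methods.

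Barcodes with 200 to 6000 genes and at most 5% mitochondrial UMIs were kept, and 7940 simulated-neighbour doublets (6.63%) were removed. Each library was clustered separately with leidenalg 0.10.2, without the members, their copies and their antisense features. Clusters were named from marker lists with at least 3 detected markers. The class of 60669 nuclei that could also be named one by one was the same in 96.3%. UMIs were summed per retina and class with at least 10 nuclei. Stages were compared with edgeR 4.0.16 (quasi-likelihood, TMM, filterByExpr, Cell Ranger version as covariate) in R 4.3.3, adjusted by Benjamini-Hochberg over all features of the class. Subclasses were compared within retinas by a 2-sided exact sign-flip test of log2(CPM + 1), adjusted over all features with at least 10 UMIs a retina. Of 54 such comparisons of a member, 38 reached that count and have an adjusted p. Changes with stage were compared between classes by a 2-sided exact permutation test. The planned adjustment over members and pairs was replaced by one over all features, and neighbours in the class order are given with unadjusted p. DESeq2 1.42.0, other normalization, filters, naming, doublet and nuclei limits, single Cell Ranger versions and leaving out each retina were alternatives. On simulated counts for cones, senile against infancy, the fit recovered 23% of 2-fold and 0% of 1.5-fold changes. The spread of these counts was estimated without the Cell Ranger term that the main fit holds, so the recovery may differ for the real counts.

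Named genes were the 9 members and any partner that passed. Members and lists were chosen with earlier results of these data known, and subclass and cluster cut-offs were set after values were seen. PCR duplicates were collapsed by UMI, and floors cover counting error only. Sexes were not used. No sequence was read. The planned comparisons within ACs are not reported here.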

Additional observations from a re-analysis of the deposited data

Results flagged for a closer look

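Of 144 groups of 4 or 5 retinas, 15 held 1 retina whose gap to the nearest other, as a share of the range of its stage, was over Dixon's critical value. Chance gives about 1 in 20 for normally spread values, and low counts are not spread so. In BCs, DACH1 stood at 381 CPM in Infancy 1 against 235 to 276 in the other infant retinas, EYA1 at 23.1 CPM in Senile 2 against 12.7 to 15, and SIX6 at 22.1 CPM in Senile 3 against 11.3 to 12.8. In RGCs, DACH2 stood at 60 CPM in Mature 3 against 16.6 to 25.4 in the other mature retinas. In Müller cells, SIX6 stood at 22.3 CPM in Infancy 2 against 11.5 to 14.2. In astrocytes, EYA3 was lowest in Mature 5, at 28.4 CPM against 44.3 to 46.9.

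The other 9 were in rods and microglia, the classes with the fewest nuclei. In rods, DACH2 stood at 71.6 CPM in Mature 3 against 19.8 to 34.6, EYA3 at 151 CPM in Senile 3 against 41.4 to 52.9, and EYA4 at 32.4 CPM in Infancy 2 against 0 to 7.87. SIX3 in rods stood at 38.9 CPM in Infancy 2 against 5.9 to 10.7 and at 38.3 CPM in Mature 2 against 7.94 to 15.4. In microglia, DACH2 stood at 319 CPM in Senile 1 against 39.6 to 116 and EYA2 at 27.1 CPM in Infancy 1 against 0 to 5.61. In Senile 5, microglia had 4.46 CPM of EYA2 and 13.4 CPM of EYA4, where the other senile retinas had 0. These EYA values in microglia rest on very few UMIs. All infant microglia held 3 UMIs of EYA2, and all senile microglia held 1 of EYA2 and 3 of EYA4.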

How the results depend on the processing

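Assigning nuclei 1 by 1 by their markers turned 3 of 21 called subclass differences, to -0.04 for DACH2 and -0.07 for SIX3 between ON BCs and OFF BCs and to -0.61 for DACH1 between PRKCA-high and PRKCA-low ON BCs, which passed in that direction; the cause was not tested. Of the 21, 13 stayed called under that assignment and 5 kept only their direction, and DACH2 moved to -0.40 between L-cones and S-cones and -1.08 between the PRKCA groups, both still called. The number of subclass calls by the exact sign-flip test was 7 in the 8 retinas of Cell Ranger 7.0.1 and 0 in the 7 of 6.1.2, where fewer retinas enter and 15 reached an unadjusted p under 0.05, and 18 to 22 without each retina. With a pseudocount of 10 CPM all 21 stayed called, but 6 shrank by over 1.5 times, among them EYA2 between ON BCs and OFF BCs, to -0.75. Within version 6.1.2 and 7.0.1, SIX3 differed by 0.53 and 0.24 between ON BCs and OFF BCs, 1.70 and 0.55 between HC groups and -0.20 and -0.60 between Müller cells and astrocytes. All 21 kept their direction within either version and without each retina, and so did the 18 that had a value with at least 50 nuclei. Members called between senile and infant retinas numbered 2 with DESeq2, 5 with no low-count filter, 0 without the Cell Ranger term, within either version, with doublets kept or with single nuclei assigned, and 0 to 2 without each retina. For mature against infant and for senile against mature they numbered 1 with DESeq2 and 2 with no filter, and 0 to 1 without each retina in the latter. Partner calls numbered 1 (DESeq2) and 2 (no filter) for senile against infant, with 0 to 1 without each retina, 3 and 3 for mature against infant, with 0 within either version or with single nuclei assigned and 0 to 2 without each retina, and 2 with no filter for senile against mature.

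Same-numbered retinas correlated at over 0.1 in 13 of 15 pairs, from -0.42 to 0.6, the other 2 being in replicate 3. In the 5 infant and senile pairs the correlation was 0.26 to 0.43. All retinas of 4 of the 5 numbers share a Cell Ranger version, and with the version removed, as in the fits, the infant and senile pairs correlated from -0.47 to 0.24, with 1 of 5 over 0.1. The numbers were not taken to pair the retinas, and 3 of 15 correlated best with their own number. With the replicate number as a block, 0 members passed between senile and infant retinas, DACH1 in cones at 0.54 (edgeR adjusted p = 0.17), and 0 partners between mature and infant. Few nuclei limit rods, microglia, astrocytes, S-cones and MEGF11-low HCs, and few UMIs limit EYA1 and SIX4.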

Other observations

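Over 131 sums of a class in a retina, the features whose log2(CPM + 1) was most like each member's were looked for among 9180 features, as a description, since the sums share libraries and depth. Likeness was closest for EYA4, with ATP10B and SPTLC3 at a Pearson r of 0.92 and FOLH1 at 0.91, and for EYA2, with ANOS1 at 0.85. SIX3 was most like SLC35F1 (0.82), SIX4 most like FAM110C (0.76), EYA3 most like USP9X (0.74) and DACH2 most like SPHKAP (0.70). DACH1, with PDZD2 and RASSF8 at 0.66, EYA1, with FGF12 at 0.65, and SIX6, with GPM6A at 0.63, had no feature above these values.

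In ACs the cluster with most DACH1 had 1028 to 2293 CPM and that with most DACH2 220 to 585 CPM.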
